A study of Mus musculus with 8 samples.

Results

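Interleukin-22 (IL-22) and the cytokines of the interleukin-6 (IL-6) family act on cells through shared receptor chains, Janus kinases and the transcription factor STAT3. The 9 genes described here code for that apparatus: the receptor chains Il22ra1, Il10rb, Il6ra, Il6st and Osmr, the kinases Jak1 and Tyk2, the transcription factor gene Stat3 and the feedback inhibitor Socs3. They were chosen by symbol as parts of this pathway, with earlier results of these data known, and each symbol matched 1 of the 53379 genes listed. All 9 passed the filter on low counts, which left 14991 genes for testing. RNA was sequenced from intestinal epithelial cells of the distal colon of C57BL/6 mice, in 4 groups of 2 libraries. KO DSS mice were RORaΔIEC, with Rora deleted in the intestine, and received DSS (dextran sulfate sodium), which damages the epithelium of the large bowel, at 2% (w/v) in their water for 5 days, then plain water for 3 days. WT DSS mice carried the floxed alleles without that deletion (RORaf/f) and received the same DSS. KO untreated mice were RORaΔIEC and WT untreated mice were RORaf/f, both without DSS, and the labels call these animals control. The labels name neither the driver of the deletion nor the age of the mice, and nothing in them says that the 2 libraries of a group came from separate animals. Every p-value below therefore measures only the spread between these libraries, which may be technical.

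IL-22 binds a receptor built from the IL22RA1 and IL10RB chains, and in the gut the IL22RA1 chain is found mainly on epithelial cells while the cytokine comes from lymphoid cells. IL-6 binds IL6RA, oncostatin M binds OSMR, and both of these chains signal together with the shared chain IL6ST. The kinases JAK1 and TYK2 sit on these receptors and phosphorylate STAT3, which enters the nucleus and activates genes of host defence and repair. Socs3 is itself a STAT3 target gene, and its protein blocks the IL6ST receptor complex and JAK1.

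The libraries held between 15971642 and 20418466 expected counts and between 20381 and 20979 genes with a count. Rora, the deleted gene, was barely detected anywhere, with 8 and 5 counts in KO DSS, 16 and 14 in WT DSS, 4 and 3 in KO untreated and 12 and 6 in WT untreated, so the KO libraries lay below the WT libraries in both treatments. The KO DSS libraries stood apart from the others in 2 respects. Mitochondrial genes took 5.29% and 4.91% of their counts, against 7.45% and 7.50% in WT DSS, 7.23% and 7.28% in KO untreated and 8.05% and 7.75% in WT untreated. The 2 KO DSS libraries also differed more from each other than replicates elsewhere, and the chi-square over genes divided by its degrees of freedom was 5.23, against 1.86 in WT DSS, 1.29 in KO untreated and 2.23 in WT untreated. Summed epithelial marker genes (9 genes, among them Epcam and Vil1) reached 20004 and 20930 CPM (counts scaled to a common library size) in KO DSS, 19241 and 19318 in WT DSS, 22240 and 22420 in KO untreated and 20197 and 20208 in WT untreated.

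The 9 genes were not shifted as a group between the genotypes. Under DSS, Socs3, Osmr and Stat3 were higher in KO than in WT and 0 members were lower, by edgeR's quasi-likelihood test at a Benjamini-Hochberg adjusted p under 0.05 over all genes tested. At an unadjusted p under 0.05 there was 1 lower member, Il22ra1, and the DESeq2 Wald test also called 3 higher and 0 lower. These 3 of 9 calls stood beside 39.0% of all genes tested that were called in either direction in that comparison, so the share among the members was not above the background. The median log2 fold change was 0.01 over the 9 genes and -0.01 over all genes. Without DSS, Il22ra1 was higher and Il6ra lower in KO, 2 of 9 genes beside 15.4% of all genes.

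DSS itself moved more of the members. In KO mice, 7 of 9 were higher with DSS than without and Il22ra1 was lower, beside 41.6% of all genes called in that comparison. In WT mice, 5 of 9 were higher and Il6ra was lower, beside 37.2% of all genes. The change with DSS itself differed between the genotypes for 3 of 9 members, beside 21.4% of all genes: Socs3 and Stat3 gained more in KO, and Il22ra1 moved down relative to WT. These comparisons share libraries, so a call in one of them is not independent of a call in another. In such bulk libraries, fewer cells of a type and less RNA per cell cannot be told apart.

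**Figure D1:**
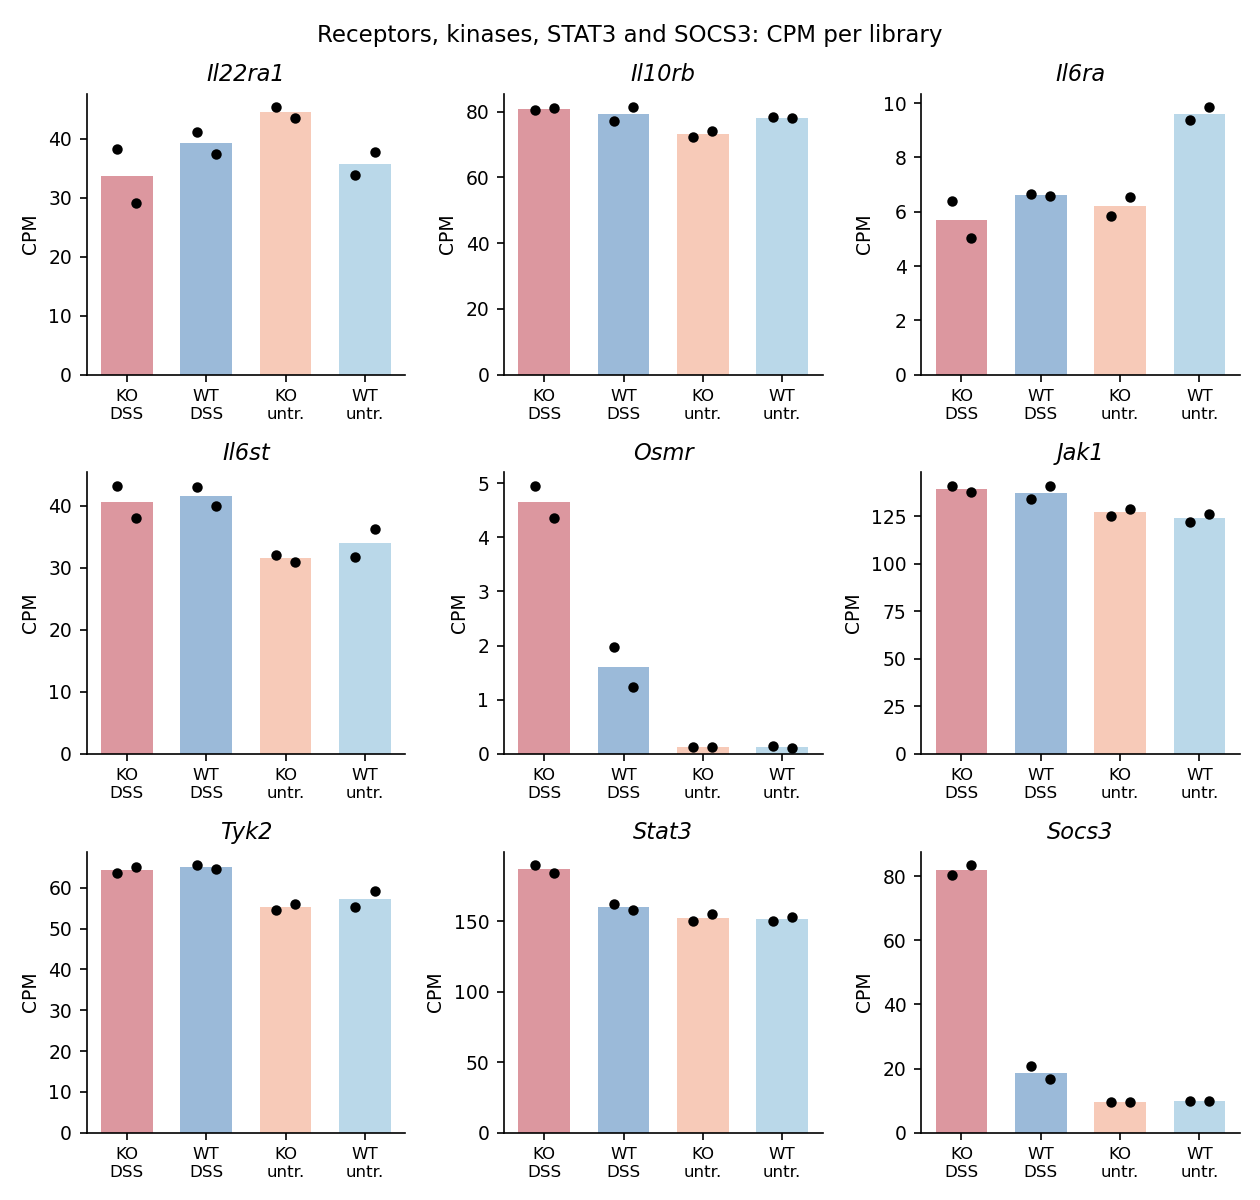
Expression of the 9 genes in CPM (vertical axes, each starting at 0) in KO DSS, WT DSS, KO untreated and WT untreated libraries. Dots are the 2 libraries of a group and bars their mean. Socs3 stood at 80.5 and 83.5 CPM in KO DSS and at 20.7 or less in every other library.

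Levels of different genes were compared per transcript length, as TPM. In KO DSS the order of the mean levels was Stat3 (71.0 ± 4.00 TPM, SD, n = 2, as for all groups), Il10rb (68.5 ± 2.11), Socs3 (51.1 ± 1.14), Jak1 (43.2 ± 1.57), Tyk2 (20.8 ± 0.297), Il22ra1 (19.9 ± 4.13), Il6st (7.10 ± 0.665), Osmr (1.56, the same in both libraries) and Il6ra (1.36 ± 0.318). The SD ranges of the neighbours Stat3 and Il10rb, Tyk2 and Il22ra1, and Osmr and Il6ra overlapped. In WT untreated the order was Il10rb (59.1 ± 0.643 TPM), Stat3 (48.8 ± 3.66), Jak1 (35.0 ± 1.41), Il22ra1 (18.8 ± 1.76), Tyk2 (16.7 ± 1.07), Socs3 (5.98 ± 0.205), Il6st (5.08 ± 0.629), Il6ra (2.20 ± 0.311) and Osmr (0.0300 in both libraries). There the SD ranges of Il22ra1 and Tyk2 overlapped. By TPM, 2 members stood above Socs3 in KO DSS and 5 in WT untreated.

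Among the IL-22 receptor chains, Il22ra1 (ENSMUSG00000037157.8, chromosome 4, 135728172 to 135752140 in mm10) had 38.2 and 29.1 CPM in KO DSS, 41.2 and 37.4 in WT DSS, 45.4 and 43.6 in KO untreated and 33.9 and 37.7 in WT untreated. Both KO untreated libraries were above both WT untreated libraries, whereas under DSS the KO and WT values overlapped. In untreated mice the gene was higher in KO (log2 fold change 0.32 ± 0.10, SE, edgeR adjusted p = 0.0409), but this call did not hold in a DESeq2 Wald test (adjusted p = 0.112), with effective-length offsets (adjusted p = 0.134) and without any of the 4 untreated or the 2 WT DSS libraries (adjusted p between 0.0593 and 0.302). Under DSS it was not called between the genotypes (-0.22 ± 0.10, adjusted p = 0.0923), although without KO DSS replicate 1, the higher of its group, the value was -0.43 with adjusted p = 0.000561.

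Within KO mice, Il22ra1 was lower with DSS than without (-0.40 ± 0.10, edgeR adjusted p = 0.00452), and within WT mice it was not called (0.14 ± 0.10, adjusted p = 0.293). The difference between these DSS changes was -0.54 ± 0.14 (adjusted p = 0.0137), and it passed the threshold no longer with effective-length offsets (adjusted p = 0.0559) or without WT DSS replicate 1 (adjusted p = 0.0795), KO untreated replicate 1 (adjusted p = 0.0672) or WT untreated replicate 1 (adjusted p = 0.0808). Il10rb, the partner chain that IL-22 shares with IL-10 (ENSMUSG00000022969.13, chromosome 16, 91406164 to 91425834), had 80.5 and 81.0 CPM in KO DSS, 77.2 and 81.4 in WT DSS, 72.3 and 74.1 in KO untreated and 78.2 and 78.0 in WT untreated. Its values lay within a narrow range in all libraries. The only call was a gain with DSS in KO (0.14 ± 0.05, adjusted p = 0.0309), which the DESeq2 Wald test did not make (adjusted p = 0.150) and which was lost without KO DSS replicate 2 or either KO untreated library (adjusted p between 0.0577 and 0.185).

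Among the IL-6 receptor chains, Il6ra (ENSMUSG00000027947.11, chromosome 3, 89864059 to 89913196), the chain that binds IL-6, had 6.39 and 5.04 CPM in KO DSS, 6.67 and 6.59 in WT DSS, 5.85 and 6.55 in KO untreated and 9.36 and 9.86 in WT untreated. Both WT untreated libraries were above the other 6 libraries, which overlapped one another in part. The gene was lower in KO than in WT without DSS (-0.63 ± 0.13, edgeR adjusted p = 0.00524) and was not called between the genotypes under DSS (-0.22 ± 0.14, adjusted p = 0.255). With DSS it was lower than without in WT (-0.53 ± 0.13, adjusted p = 0.00528) and not called in KO (-0.12 ± 0.15, adjusted p = 0.555). The test of the difference between these DSS changes made no call (0.41 ± 0.20, adjusted p = 0.153). The DESeq2 Wald test put both of the calls just outside the threshold (adjusted p = 0.0518 for KO against WT without DSS and 0.0626 for DSS in WT), and the first was also lost without KO untreated replicate 1 (adjusted p = 0.0724).

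Il6st, the chain common to the whole family (ENSMUSG00000021756.12, chromosome 13, 112464070 to 112510086), had 43.2 and 38.1 CPM in KO DSS, 43.0 and 40.0 in WT DSS, 32.1 and 31.0 in KO untreated and 31.8 and 36.3 in WT untreated. All 4 DSS libraries were above all 4 untreated ones, and the genotypes overlapped within each treatment. The log2 fold change with DSS was 0.37 ± 0.08 in KO (edgeR adjusted p = 0.00189) and 0.29 ± 0.08 in WT (adjusted p = 0.00880). The WT call was lost without WT DSS replicate 1 (adjusted p = 0.104) or WT untreated replicate 1 (adjusted p = 0.139).

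Osmr, the receptor chain for oncostatin M (ENSMUSG00000022146.12, chromosome 15, 6813577 to 6874969), was the receptor gene with the largest fold changes with DSS, at low levels throughout. It had 4.95 and 4.35 CPM in KO DSS, 1.98 and 1.24 in WT DSS, 0.127 and 0.122 in KO untreated and 0.150 and 0.112 in WT untreated. In counts these were 86 and 76 in KO DSS, 33 and 21 in WT DSS, 2 and 2 in KO untreated and 3 and 2 in WT untreated. Both KO DSS libraries lay above both WT DSS libraries, and all DSS libraries lay above the untreated ones, where the gene was near the detection limit.

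The ratio of the mean CPM of Osmr was 2.89 between KO DSS and WT DSS, with a 95% exact counting interval of 2.11 to 4.01 that covers counting error only (log2 fold change 1.53 ± 0.24, edgeR adjusted p = 0.000152). With DSS against without, the ratio was 37.3 (14.3 to 138) in KO (5.14 ± 0.40, adjusted p = 1.16e-07) and 12.3 (4.90 to 38.9) in WT (3.53 ± 0.46, adjusted p = 4.42e-05). The difference between these DSS changes was not called (1.61 ± 0.91, adjusted p = 0.239), with only 4 counts in KO untreated and 5 in WT untreated behind it. Each of the 3 calls passed the threshold under every alternative that was run.

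The kinase genes changed little. Jak1 (ENSMUSG00000028530.14, chromosome 4, 101152367 to 101265282) had 141 and 138 CPM in KO DSS, 134 and 141 in WT DSS, 125 and 129 in KO untreated and 122 and 126 in WT untreated. Tyk2 (ENSMUSG00000032175.11, chromosome 9, 21104068 to 21131243) had 63.6 and 65.1 CPM in KO DSS, 65.6 and 64.5 in WT DSS, 54.6 and 56.1 in KO untreated and 55.4 and 59.1 in WT untreated. For both genes every DSS library was above every untreated library, and the genotypes overlapped under DSS. Jak1 gained 0.13 ± 0.05 on the log2 scale with DSS in KO (edgeR adjusted p = 0.0350) and 0.15 ± 0.05 in WT (adjusted p = 0.0183), and Tyk2 gained 0.22 ± 0.05 in KO (adjusted p = 0.00435) and 0.19 ± 0.05 in WT (adjusted p = 0.0118). The DESeq2 Wald test made neither Jak1 call (adjusted p = 0.112 in KO and 0.0740 in WT), nor the Tyk2 call in WT (adjusted p = 0.0967). Without single libraries, the Jak1 call in KO was lost for KO DSS replicate 1 and each untreated library (adjusted p between 0.0509 and 0.222), that in WT for WT DSS replicate 2 and each WT untreated library (between 0.0512 and 0.169), the Tyk2 call in KO for KO untreated replicate 1 (0.0529), and that in WT for WT DSS replicate 1 (0.0884) and WT untreated replicate 1 (0.140).

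Stat3 (ENSMUSG00000004040.16, chromosome 11, 100885098 to 100939540) had 190 and 184 CPM in KO DSS, 162 and 158 in WT DSS, 150 and 155 in KO untreated and 150 and 153 in WT untreated. Both KO DSS libraries were above every other library, and the untreated genotypes overlapped. Under DSS the gene was higher in KO than in WT by 0.23 ± 0.04 on the log2 scale (edgeR adjusted p = 0.000784), a ratio of 1.17. With DSS against without, it was higher in KO (0.30 ± 0.04, adjusted p = 6.76e-05) and was not called in WT (0.08 ± 0.04, adjusted p = 0.167). The difference between the DSS changes was 0.22 ± 0.06 (adjusted p = 0.0215), and that call did not hold in a DESeq2 Wald test (adjusted p = 0.0705) or without any one of the 6 libraries other than KO DSS (adjusted p between 0.0554 and 0.116). Both other Stat3 calls held under every alternative that was run.

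Socs3, the feedback inhibitor (ENSMUSG00000053113.3, chromosome 11, 117966079 to 117970047), had the steepest difference between the genotypes among the members. It had 80.5 and 83.5 CPM in KO DSS, 20.7 and 16.7 in WT DSS, 9.53 and 9.49 in KO untreated and 9.91 and 9.75 in WT untreated. The KO DSS libraries were far above all others, the WT DSS libraries came next, and the untreated libraries of both genotypes lay close together at the bottom. Under DSS, KO exceeded WT by 2.13 ± 0.07 on the log2 scale (edgeR adjusted p = 8.80e-11), a ratio of 4.39. Without DSS the genotypes were not called different (-0.05 ± 0.12, adjusted p = 0.838).

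The DSS change of Socs3 was 3.11 ± 0.09 on the log2 scale in KO (edgeR adjusted p = 1.88e-12), a ratio of 8.62, and 0.93 ± 0.10 in WT (adjusted p = 9.35e-06), a ratio of 1.90. The difference between these changes was 2.18 ± 0.14 (adjusted p = 1.58e-07). All of these Socs3 calls held under every alternative that was run, including each left-out library.

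**Figure D2:**
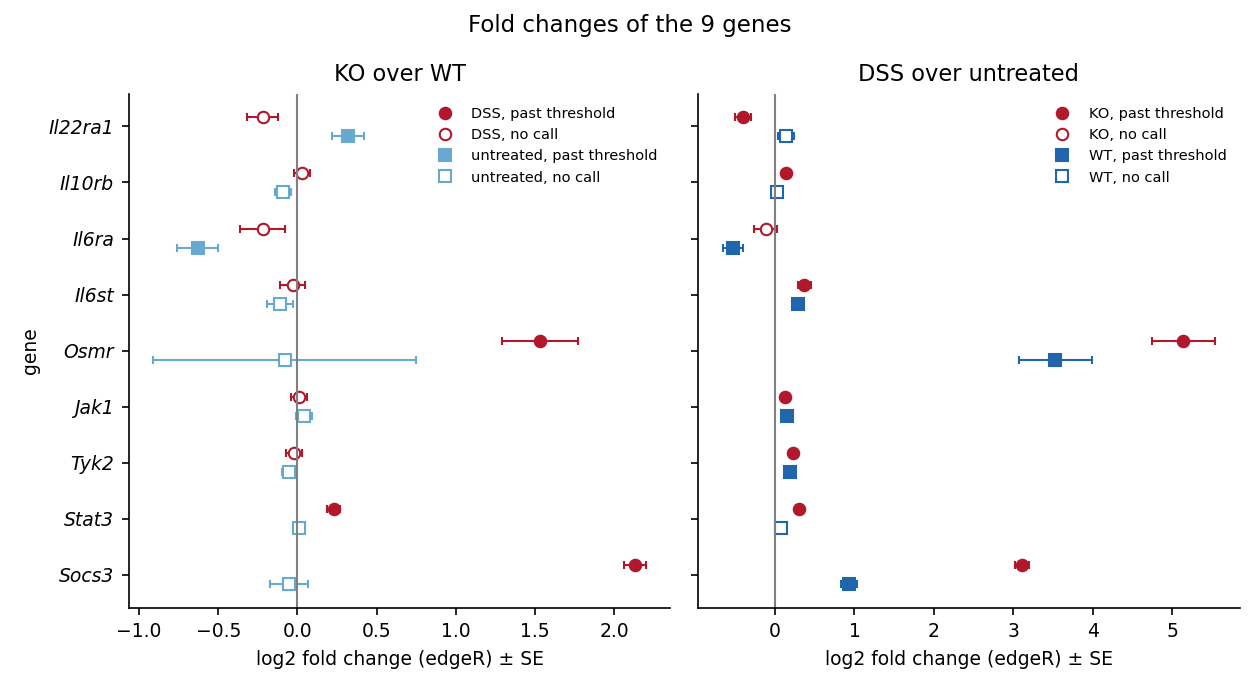
Log2 fold changes (horizontal axes, edgeR, bars are SE) of the 9 genes for KO over WT (left, under DSS as red circles and untreated as blue squares) and for DSS over untreated (right, KO as red circles and WT as blue squares), with filled symbols past the adjusted p threshold of 0.05. Socs3 at 2.13 and Osmr at 1.53 stood furthest to the right between the genotypes under DSS.

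STAT proteins bind DNA at sites of the form TTCNNNGAA, which reads the same on both strands. The 250 bases upstream of the RefSeq start (GRCm38.p6) were searched for that form, and 2306 of 32851 such windows held it (7.02%). Of the 9 members 8 had a window in the table used, and only that of Socs3 held a match. Among the genes given below as targets, the epithelial list had a match in 2 of 14 genes with a window (Reg3b and Steap4) and the general list in 3 of 16 (Sbno2, Icam1 and Bcl6). A match is a description of the letters and not evidence of binding, and its absence says only that the letters are not in this window. The match in Socs3 began 154 bases before the RefSeq start, at chr11:117969512-117969520. The annotations place the start of this gene differently. In GENCODE M21 the coding transcript starts 180 bases downstream of the RefSeq start and the gene's outermost transcript 681 bases upstream of it, so all 250 bases of the Socs3 window lie within the GENCODE gene span given above, 77 of them in an exon of a transcript with no annotated coding sequence. Of the targets with a match, Reg3b, Steap4, Icam1 and Sbno2 (edgeR adjusted p = 8.48e-06) were called between the genotypes under DSS. The Steap4 call (adjusted p = 0.0148) was lost in 4 of 14 alternatives, among them the DESeq2 Wald test (adjusted p = 0.178). The Socs3 match is printed with 16 bases on either side, next to those of Reg3b, Steap4 and Icam1, which show how the letters between the fixed ends vary. That of Sbno2 is not printed. Each printed stretch is written 5′ to 3′ on the strand of its gene, with the match in capitals.
Socs3, chr11:117969496-117969536, minus strand: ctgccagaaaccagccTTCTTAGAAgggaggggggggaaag
Reg3b, chr6:78370740-78370780, plus strand: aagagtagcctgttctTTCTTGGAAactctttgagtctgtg
Steap4, chr5:7960340-7960380, plus strand: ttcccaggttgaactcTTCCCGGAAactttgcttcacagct
Icam1, chr9:21015882-21015922, plus strand: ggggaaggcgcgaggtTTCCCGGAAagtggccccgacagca

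The whole window upstream of Socs3 is printed because it carries the match and belongs to the member with the steepest difference between the genotypes under DSS. It spans chr11:117969367-117969616 on the minus strand, with the match in capitals.
Socs3 upstream window: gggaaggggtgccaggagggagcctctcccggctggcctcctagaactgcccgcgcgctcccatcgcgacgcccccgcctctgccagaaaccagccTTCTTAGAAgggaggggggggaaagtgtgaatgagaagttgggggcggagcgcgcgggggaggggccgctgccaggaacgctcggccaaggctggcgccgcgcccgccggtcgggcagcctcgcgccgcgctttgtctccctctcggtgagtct

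The ligands of these receptors were rare in the epithelial libraries. Of 14 ligand genes listed 5 had enough counts for the test, and under DSS 2 of these were higher in KO than in WT, beside 21.3% of all genes called higher. By edgeR 0 were lower, beside 17.7% of all genes, and 0 also at an unadjusted p under 0.05. The DESeq2 Wald test called 1 higher and 0 lower. Osm, which codes for oncostatin M, a cytokine made chiefly by myeloid cells, had 134 and 127 counts in KO DSS, 8 and 10 in WT DSS, 0 and 0 in KO untreated and 0 and 1 in WT untreated. Both KO DSS libraries were far above the rest. Osm thus passed the filter on low counts through the group where it was high, so its place among the 2 called was partly fixed in advance. The ratio of its mean CPM between KO DSS and WT DSS was 14.0, with a counting interval of 8.68 to 24.0 (log2 fold change 3.79 ± 0.27, edgeR adjusted p = 1.52e-07). Within KO mice it was at least 80.1-fold higher with DSS than without, taken against 3 counts over the KO untreated group, where it was at 0.

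Lif, another IL6ST ligand, had 7.02 and 5.72 CPM in KO DSS, 4.75 and 3.94 in WT DSS, 5.08 and 5.26 in KO untreated and 4.15 and 6.39 in WT untreated. The KO DSS libraries were above the WT DSS libraries (0.55 ± 0.20, edgeR adjusted p = 0.0403), while the untreated groups overlapped. This call was lost in 7 of 14 alternatives (adjusted p between 0.0588 and 0.224), among them the DESeq2 Wald test and leaving out KO DSS replicate 1, either WT DSS library or either KO untreated library. Il22 had 4 and 2 counts in KO DSS and 0 in each of the other 6 libraries. Il6 had 8 and 1 counts in KO DSS, 0 and 0 in WT DSS, 0 and 1 in KO untreated and 0 and 0 in WT untreated, so 8 of its 9 KO DSS counts came from 1 library. Il11 had 4 and 2 counts in KO DSS and between 1 and 3 in each of the other libraries. These 3 cytokine genes had too few counts for the test, and no fold is given.

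Osm, Osmr and Socs3 were highest in KO DSS, next in WT DSS and lowest without DSS, and markers of neutrophils stood in that order too. The summed level of 11 neutrophil markers was 217 and 233 CPM in KO DSS, 11.3 and 12.4 in WT DSS, 0.191 and 0.184 in KO untreated and 0.100 and 0.168 in WT untreated. Of the 11 genes, 0 were at 0 counts in each KO DSS library, 2 in each WT DSS library and 8 or 9 in each untreated library, where S100a8 was at 0 throughout. Under DSS 10 of 10 neutrophil markers tested were higher in KO than in WT, beside 21.3% of all genes, and 9 by the DESeq2 Wald test. This count was partly fixed in advance by the filter on low counts. Retnlg, Ngp, Mmp8, Cxcr2 and Clec4d had 24.7, 3.70, 6.77, 4.74 and 5.28 CPM in KO DSS. In WT DSS they had 0.740 (SD 0.536), 0, 0.148, 0.445 and 0.476 CPM. They were near 0 without DSS, so they passed the filter through the group where they were high. Camp, with 3 counts in KO DSS, was not tested. The part of neutrophil RNA in the results for Osm, Osmr, Socs3 and Stat3 was not tested.

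The summed level of 13 macrophage markers was 151 and 161 CPM in KO DSS, 71.8 and 71.8 in WT DSS, 48.0 and 49.9 in KO untreated and 47.5 and 49.4 in WT untreated. Most of that sum was Cd14, a receptor for bacterial lipopolysaccharide, at 106 and 112 CPM in KO DSS, 47.2 and 47.8 in WT DSS, 39.7 and 42.3 in KO untreated and 39.4 and 40.7 in WT untreated. The other 12 markers summed to 45.5 and 49.2 CPM in KO DSS, 24.6 and 24.0 in WT DSS, 8.32 and 7.59 in KO untreated and 8.01 and 8.68 in WT untreated, so they stood further above their untreated level than the whole sum did. In KO 11 of 12 macrophage markers tested were higher with DSS and 0 lower, beside 21.7% and 19.8% of all genes. In WT 9 were higher and 0 lower, beside 18.9% and 18.3%. The size of the change varied. In KO the ratio of mean CPM with DSS to that without was 10.3 for Csf1r, the receptor for the macrophage growth factor CSF1, and 10.9 for Lyz2, a lysozyme gene of myeloid cells. Cd68 averaged 3.16 CPM in KO DSS and 1.25 in KO untreated, and Mrc1 averaged 2.09 in KO DSS and 2.27 in KO untreated. Under DSS 6 of 12 macrophage markers tested were higher in KO by edgeR and 0 lower, beside 21.3% and 17.7% of all genes. At an unadjusted p under 0.05 there were 7 higher and 0 lower. The DESeq2 Wald test called 4 higher and 0 lower. Between 0 and 2 of these genes were at 0 counts in any library. Fcgr1 and Aif1 passed the filter on low counts through KO DSS, at 0.919 and 0.832 CPM there and 0.297 and 0.535 in WT DSS. Fibroblast markers (8 genes) summed to 19.3 and 17.9 CPM in KO DSS, 16.0 and 15.4 in WT DSS, 20.5 and 20.2 in KO untreated and 17.9 and 15.8 in WT untreated, with 4 of 6 tested higher and 1 lower in KO under DSS, beside 21.3% and 17.7% of all genes, and 2 higher and 1 lower by the DESeq2 Wald test. Col1a1 likewise passed the filter through KO DSS (1.49 CPM there and 0.446 in WT DSS). Markers of T, NK and innate lymphoid cells, the usual sources of IL-22, summed to 41.9 and 46.0 CPM in KO DSS, 45.1 and 47.5 in WT DSS, 80.7 and 81.9 in KO untreated and 75.3 and 77.9 in WT untreated. Between the genotypes under DSS, edgeR called 0 of the 6 tested, beside 39.0% of all genes called in either direction. The count was also 0 at an unadjusted p under 0.05 and 0 by the DESeq2 Wald test. The part of these cells in the results was likewise not tested.

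**Figure D3:**
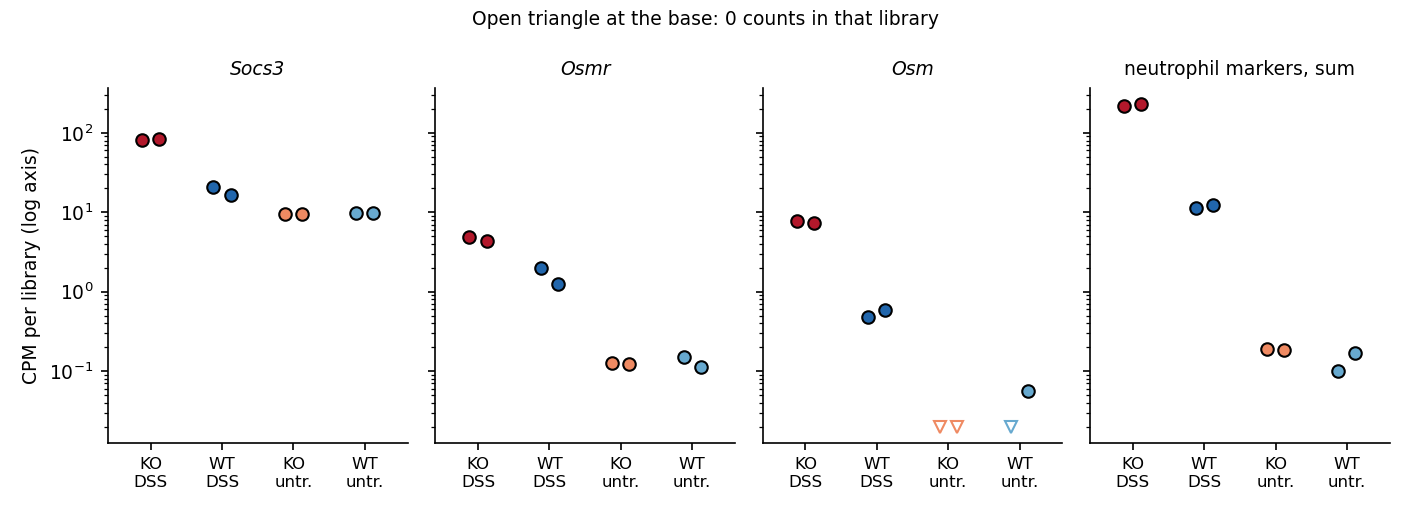
Socs3, Osmr, Osm and the sum of 11 neutrophil markers in CPM (vertical log axis) in KO DSS, WT DSS, KO untreated and WT untreated. Each point is a library, and an open triangle at the base is a library with 0 counts. The neutrophil sum was 217 and 233 CPM in KO DSS, against 11.3 and 12.4 in WT DSS.

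Of 10 other receptor chains of these and related cytokines 5 were tested, and under DSS 1 was higher and 1 lower in KO. This share was near the 39.0% of all genes called in that comparison. Il10ra, the ligand-binding chain for IL-10 and a gene of blood cells, had 3.16 and 2.98 CPM in KO DSS, 0.721 and 1.06 in WT DSS, 0.445 and 0.245 in KO untreated and 0.400 and 0.392 in WT untreated (KO over WT under DSS 1.78 ± 0.29, edgeR adjusted p = 0.000197). Lifr, the receptor chain for LIF, had 1.32 and 1.32 CPM in KO DSS, 2.46 and 2.83 in WT DSS, 2.54 and 3.37 in KO untreated and 4.71 and 5.10 in WT untreated. In both treatments the KO libraries lay below the WT libraries, and the gene was called lower in KO under DSS (adjusted p = 0.00459) and without (adjusted p = 0.0180). The call under DSS was lost with effective-length offsets (adjusted p = 0.0765). The call without DSS was lost in 5 of 14 alternatives (adjusted p between 0.0612 and 0.643), namely the DESeq2 Wald test, effective-length offsets and leaving out KO untreated replicate 1 or either WT untreated library.

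Of the other 8 JAK kinase and STAT genes 7 were tested, and under DSS 3 were higher and 1 lower in KO, beside 21.3% and 17.7% of all genes. The DESeq2 Wald test called 2 higher and 0 lower. Stat2 averaged 66.4 ± 0.0890 CPM in KO DSS and 53.3 ± 1.36 in WT DSS (0.32 ± 0.05, edgeR adjusted p = 0.000282), and Jak3, a kinase of lymphoid cytokine receptors, 22.1 ± 0.0839 in KO DSS and 17.6 ± 0.125 in WT DSS (0.33 ± 0.08, adjusted p = 0.00400). Stat5b was the lower gene, at 21.3 ± 1.87 CPM in KO DSS and 26.4 ± 0.716 in WT DSS (-0.30 ± 0.08, edgeR adjusted p = 0.00595). The DESeq2 Wald test made neither the Jak3 call (adjusted p = 0.0789) nor the Stat5b call (adjusted p = 0.0546). The Stat5b call was also lost without KO DSS replicate 2 or WT DSS replicate 1 (adjusted p between 0.0534 and 0.0562), and the Stat2 call with effective-length offsets (adjusted p = 0.272).

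Of the 10 other inhibitors and phosphatases, all were tested, and under DSS 3 were higher and 1 lower in KO, a share near the 39.0% of all genes called in that comparison. Socs1, which restrains interferon signalling, had 6.79 and 6.01 CPM in KO DSS, 1.74 and 1.83 in WT DSS, 3.94 and 3.24 in KO untreated and 2.30 and 1.29 in WT untreated (1.84 ± 0.23 under DSS, edgeR adjusted p = 1.92e-05). Socs2, which restrains growth hormone signalling through STAT5, ran the other way, with 13.3 and 13.2 CPM in KO DSS, 22.8 and 23.8 in WT DSS, 30.3 and 31.8 in KO untreated and 31.3 and 28.5 in WT untreated (-0.81 ± 0.08 under DSS, adjusted p = 3.01e-06). Of the SOCS family genes in these lists, Socs1 and Socs3 were thus higher and Socs2 lower in KO under DSS, and Cish was not called (-0.09 ± 0.09, adjusted p = 0.474). The phosphatase genes Ptpn1 (0.36 ± 0.06, adjusted p = 0.000145) and Ptpn2 (0.24 ± 0.08, adjusted p = 0.0197) were higher in KO under DSS. The Ptpn2 call was lost in the DESeq2 Wald test (adjusted p = 0.148), with effective-length offsets and without KO DSS replicate 2 or WT DSS replicate 1 (adjusted p between 0.0567 and 0.161 over all 4).

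Genes known as targets of IL-22 or STAT3 in gut epithelium were mostly higher in KO under DSS. Of 17 listed and tested, 14 were higher and 2 lower in KO than in WT, with a median log2 fold change of 0.99, beside 21.3% and 17.7% of all genes called higher and lower. Lcn2, among the 14, passed the filter on low counts through KO DSS (12.3 CPM there and 0.237 in WT DSS). Lrg1, which codes for a glycoprotein secreted during inflammation, averaged 130 ± 8.23 CPM in KO DSS and 3.90 ± 0.182 in WT DSS (5.05 ± 0.10, edgeR adjusted p = 1.82e-13). Nos2, the inducible nitric oxide synthase, averaged 93.4 ± 0.800 CPM in KO DSS and 15.1 ± 0.681 in WT DSS (2.63 ± 0.06, adjusted p = 1.52e-12). S100a9 (4.65 ± 0.10, adjusted p = 2.75e-13) and S100a8 (4.91 ± 0.12, adjusted p = 5.60e-11), the calprotectin subunits, are also neutrophil genes and stand in the neutrophil list as well. Saa2, an acute-phase gene, was not called (0.99 ± 0.52, adjusted p = 0.145).

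The 2 targets that were lower in KO under DSS were Reg3b and Reg3g, antimicrobial lectins known as IL-22 targets, and they are named because of their values. Reg3b had 114 and 124 CPM in KO DSS, 178 and 182 in WT DSS, 1.02 and 1.78 in KO untreated and 0.350 and 0.0560 in WT untreated. Reg3g had 30.0 and 29.9 CPM in KO DSS, 44.3 and 44.3 in WT DSS, 0.699 and 0.857 in KO untreated and 0.501 and 0.448 in WT untreated. Both genes were far higher with DSS than without in both genotypes, and under DSS KO was below WT without overlap (Reg3b -0.59 ± 0.06, edgeR adjusted p = 3.52e-06, and Reg3g -0.56 ± 0.06, adjusted p = 6.04e-06).

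**Figure D4:**
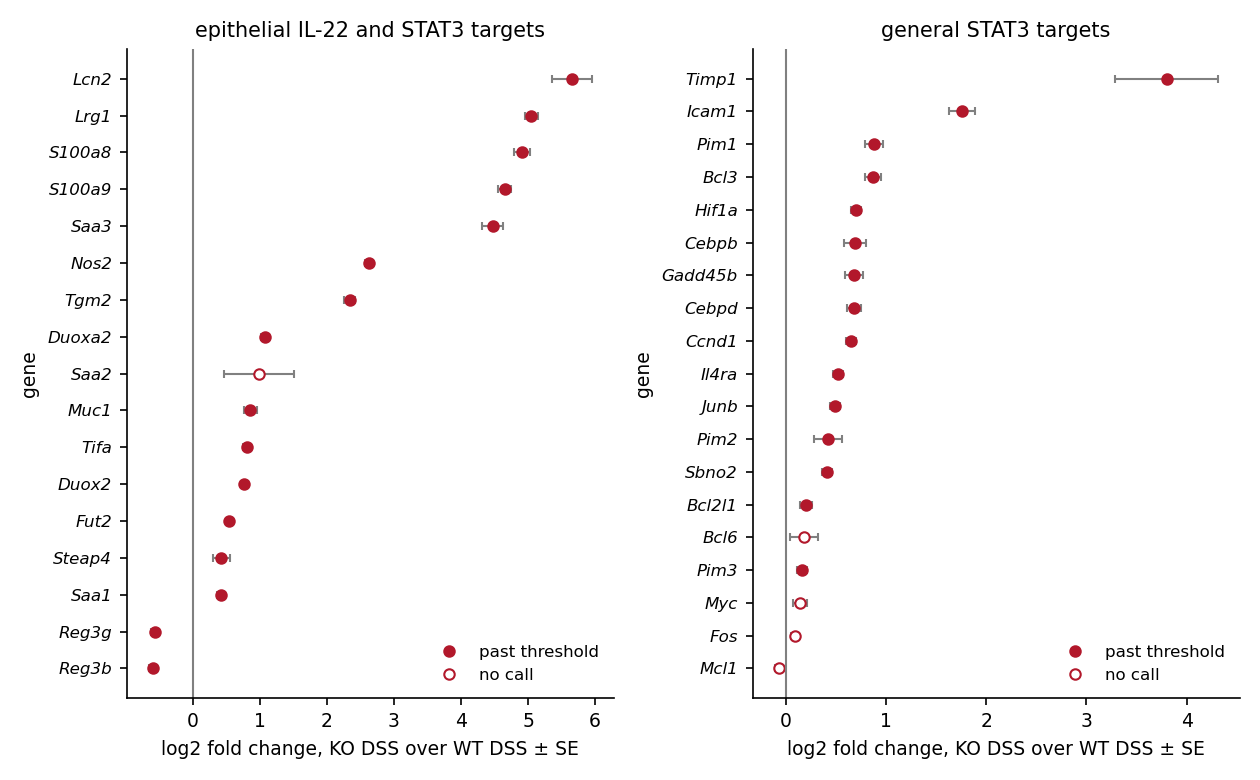
Log2 fold changes of KO DSS over WT DSS (horizontal axes, edgeR, bars are SE) for 17 epithelial IL-22 and STAT3 targets (left) and 19 general STAT3 targets (right), each sorted by value, with filled circles past the adjusted p threshold of 0.05. On the left Reg3b at -0.59 and Reg3g at -0.56 lie alone below 0, and on the right 15 filled circles lie above 0.

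Genes known as STAT3 targets in many cell types were higher in KO under DSS for 15 of 19, beside 21.3% of all genes, with a median log2 fold change of 0.52. Timp1, among the 15, passed the filter on low counts through KO DSS (1.75 CPM there and 0.119 in WT DSS). The count of lower genes was 0 of 19 by edgeR, beside 17.7% of all genes, and 0 also at an unadjusted p under 0.05. The DESeq2 Wald test called 0 lower and 12 higher. Hif1a, the oxygen-regulated transcription factor, averaged 313 ± 14.6 CPM in KO DSS and 193 ± 3.67 in WT DSS (0.70 ± 0.05, edgeR adjusted p = 3.05e-08). Icam1, an adhesion molecule for leukocytes, averaged 13.2 ± 0.275 CPM in KO DSS and 3.90 ± 0.0141 in WT DSS (1.76 ± 0.13, adjusted p = 1.08e-07). Ccnd1, a cyclin of cell division (0.65 ± 0.05, adjusted p = 1.08e-07), and Bcl3, a partner of NF-kappaB (0.87 ± 0.08, adjusted p = 1.37e-06), were higher as well. Without DSS the same list had 4 genes higher and 6 lower in KO, beside 9.19% and 6.21% of all genes, and the epithelial list had 2 higher and 2 lower.

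More of the general targets were higher with DSS in KO than in WT. In KO mice 13 of 19 were higher with DSS and 3 lower, beside 21.7% and 19.8% of all genes, and in WT mice 2 were higher and 9 lower, beside 18.9% and 18.3% of all genes. Only Cebpd, Gadd45b, Pim1 and Pim3 were called higher with DSS in KO and lower with DSS in WT. Icam1 and Il4ra were higher in both genotypes, Fos, Mcl1 and Myc were lower in both, and 7 genes were higher in KO with no call in WT; these genes are named for their calls. The median log2 fold change with DSS was 0.43 in KO and -0.16 in WT. The difference between the DSS changes passed the threshold upwards for 14 of 19 and downwards for 1, beside 10.7% and 10.6% of all genes, with Icam1 (1.62 ± 0.23, edgeR adjusted p = 0.000194), Bcl3 (0.46 ± 0.12, adjusted p = 0.0142), Hif1a (0.36 ± 0.06, adjusted p = 0.00121) and Ccnd1 (0.29 ± 0.07, adjusted p = 0.00796) among the 14. Of the 17 epithelial targets 15 were higher and 1 lower with DSS in KO, and 14 were higher and 1 lower in WT, so that list moved upwards in both genotypes. Many of these target genes respond to other signals too. The neutrophil and macrophage marker sums given above were likewise highest in KO DSS. In KO DSS they were 217 and 233 CPM for neutrophils and 151 and 161 CPM for macrophages. With DSS in WT these sums rose as well, to 11.3 and 12.4 CPM for neutrophils and 71.8 and 71.8 CPM for macrophages. The part of neutrophil and macrophage RNA in these target counts was not tested.

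**Figure D5:**
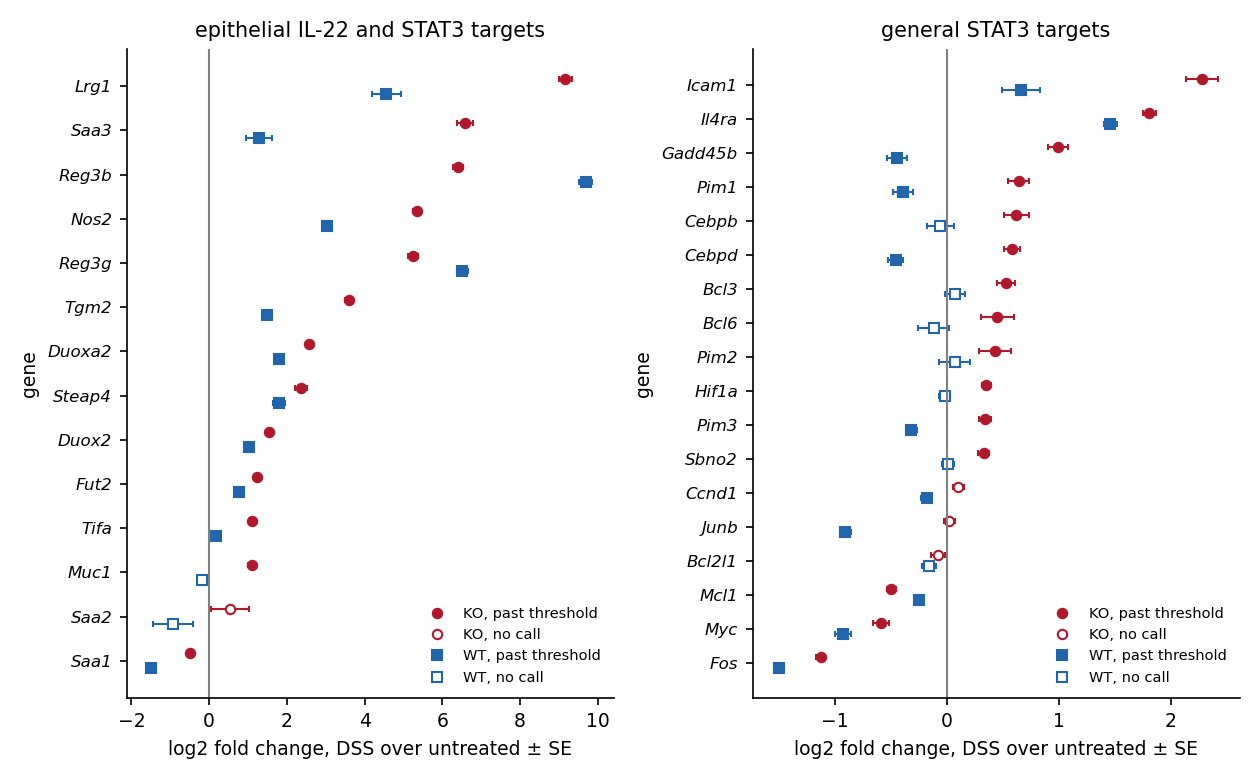
Log2 fold changes with DSS against untreated (horizontal axes, edgeR, bars are SE) in KO (red circles) and WT (blue squares) for the targets with more than 3 counts in every group, filled where past the adjusted p threshold of 0.05. Lcn2, S100a8, S100a9 and Timp1 are left out for low counts. In the general list (right) most red circles lie right of 0 and most filled blue squares left of it.

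The genes whose profile over the 8 libraries lay nearest to that of a member were found among 9991 protein-coding genes that averaged 5 CPM or more, by the Euclidean distance between centred log2(CPM + 1) values. For Stat3 they included Ptbp1 and Tmod3, each at a distance of 0.07, and Ptbp1 averaged 361 CPM in KO DSS, 304 in WT DSS, 299 in KO untreated and 293 in WT untreated. For Socs3 they were Plek (0.46), Slc16a3 (0.49) and Wfdc18 (0.60), and Plek averaged 19.9 CPM in KO DSS, 4.94 in WT DSS, 2.24 in KO untreated and 1.87 in WT untreated. For Osmr they were Itgam (0.29), Coro1a (0.40) and Slc7a11 (0.43), and Itgam, itself in the macrophage list, averaged 12.5 CPM in KO DSS, 5.18 in WT DSS, 1.62 in KO untreated and 1.75 in WT untreated. The libraries compared are the same for all genes, so these distances describe the 8 libraries only.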

How the data were processed

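RNA from 8 libraries of distal colon epithelial cells was analysed from 1 deposited table per library. Per the file headers, the authors deposited RSEM's expected count for each gene, an estimate in which a read with several possible origins is split between them. TPM values, which per the file headers take effective length into account, were used as deposited and only to compare levels between genes. The deposited FPKM column was not used. The build mm10 and the tools RSEM 1.3.0, STAR 2.5.3a and DESeq2 1.18.1 come from the submitters' processing notes; the annotation release and strand setting are not given in the sources used here, so reads of overlapping or antisense genes cannot be told apart. The share of genes whose expected count was fractional was between 9.17% and 9.75% per library.

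After rounding, these estimates were tested with edgeR 4.0.16 in R 4.3.3. The default filterByExpr rule kept 14991 of 53379 genes. Libraries were scaled with TMM factors, and all 8 libraries entered 1 quasi-likelihood fit, with 1 coefficient for each group and 4 residual degrees of freedom. P-values are two-sided and adjusted by Benjamini-Hochberg over all genes tested in a comparison, with a threshold of 0.05. "Higher" and "lower" counts of lists are calls at that threshold. The SE was taken from the F statistic as |log2 fold change| / sqrt(F), and for genes with few counts it can fall below counting error. CPM values are TMM scaled. Folds against a group at 0 use 3 counts over the group, and counting intervals are exact 95% intervals; both cover counting error only. The procedure was also run on simulated data, with a fixed spread between libraries rather than that of these data. Changes were planted there only in genes with higher counts, so that run does not bear on genes with few counts such as Osmr and Osm. Positions are those of GENCODE M21, in which 99.8% of the identifiers were found when version numbers were ignored. Upstream sequences are from RefSeq, build GRCm38.p6.

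The members and lists were chosen with earlier results of these data known. The text names all 9 members, up to 4 genes per pathway list with the smallest p between KO and WT under DSS, Il22, Il6, Il11, Osm and Lif whatever their values, and the 3 nearest profiles of Stat3, Socs3 and Osmr. Reg3b, Reg3g, Saa2, Cd14, Csf1r, Lyz2, Cd68, Mrc1, Camp, Cish, the general targets named for their DSS calls, the genes named for passing the filter through KO DSS and the genes with a motif match were named after their values were seen. Some genes that this rule names are not reported here. The symbol Itgam stands on 2 rows, so it was left out of the macrophage sum and test. Alternatives were DESeq2 size factors in edgeR, no filter on low counts, the DESeq2 1.42.0 Wald test, effective-length offsets, a replicate block, only the groups of the comparison, and leaving out each library in turn. Same-numbered libraries of different groups did not deviate together, with correlations of their deviations between -0.11 and 0.08.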

Additional observations from a re-analysis of the deposited data

Results flagged for a closer look

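Each gene below had a DSS change that differed between KO and WT by edgeR's test of that difference (log2 DSS change in KO minus log2 DSS change in WT, adjusted p under 0.05 over all genes tested). Among the 9 members these were Socs3 (2.18 ± 0.14, SE, adjusted p = 1.58e-07), Stat3 (0.22 ± 0.06, adjusted p = 0.0215) and Il22ra1 (-0.54 ± 0.14, adjusted p = 0.0137).

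Among the other receptor, kinase, STAT and inhibitor genes named above, the difference was 1.98 for Il10ra, -0.41 for Stat5b, -0.86 for Socs2, 0.29 for Ptpn1 and 0.50 for Ptpn2. The DESeq2 Wald test made these calls for Socs2 and Ptpn2, and not for Il10ra (adjusted p = 0.149), Stat5b (adjusted p = 0.125) or Ptpn1 (adjusted p = 0.168). Each of those 3 calls was also lost without WT DSS replicate 1 or WT untreated replicate 1. The Il10ra and Ptpn1 calls were further lost without KO untreated replicate 2 or WT untreated replicate 2, and the Stat5b call without KO untreated replicate 1. With effective-length offsets the Il10ra and Stat5b calls were lost as well. Il10ra had 11 counts in KO untreated and 15 in WT untreated. Among the epithelial targets it was 4.61 for Lrg1, 2.31 for Nos2, -1.27 for Reg3g and -3.28 for Reg3b. Reg3b had 45 counts in KO untreated and 8 in WT untreated, and Lrg1 had 7 in KO untreated and 6 in WT untreated, so both differences rest on few untreated counts. The Lrg1 call was lost without WT untreated replicate 1 (adjusted p = 0.325). The Reg3g call was lost in the DESeq2 Wald test (adjusted p = 0.0653) and without any 1 of the 4 untreated libraries (adjusted p between 0.0610 and 0.187). Among the general STAT3 targets it was 1.62 for Icam1, 0.46 for Bcl3, 0.36 for Hif1a and 0.29 for Ccnd1. The Bcl3 call was lost without WT DSS replicate 1, KO untreated replicate 1 or WT untreated replicate 2 (adjusted p between 0.0624 and 0.0890).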

How the results depend on the processing

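Of 45 single values of the 9 members, up to 14 alternatives each gave 620 values in all, of which 545 kept their direction and their side of the threshold, 50 lost the call, 2 gained it and 23 changed sign. The calls of Socs3, of Osmr and of Stat3 between KO and WT under DSS held in all of them. Between KO and WT without DSS 2 members were called, and the DESeq2 Wald test called 0, effective-length offsets 1 and leaving out 1 library between 0 and 2. For DSS in WT 6 members were called, against 3 by the DESeq2 Wald test and between 3 and 6 without 1 library. For DSS in KO the count of 8 was between 5 and 8 without 1 library, and for the difference between the DSS changes the count of 3 was between 1 and 3. A fit with the replicate number as a block gave the same counts of 2, 3, 8, 6 and 3 for KO against WT untreated, KO against WT under DSS, DSS in KO, DSS in WT and their difference; the labels do not say that the numbers pair libraries. All sign changes concerned values without a call, and the cause was not tested. For Stat3 between KO and WT untreated the log2 fold change of 0.01 was -0.01 with no filter, -0.02 with effective-length offsets, -0.0023 with only the groups of the comparison and between -0.02 and 0.03 without 1 library. With effective-length offsets, Osmr between KO and WT untreated was 0.59, Il6ra with DSS in KO 0.05 and the difference between the DSS changes of Tyk2 -0.02; without 1 library these were between -0.26 and 0.14, between -0.30 and 0.04, and between -0.01 and 0.08. Without 1 library, KO against WT under DSS was between -0.01 and 0.06 for Il10rb, -0.12 and 0.06 for Il6st, -0.02 and 0.05 for Jak1 and -0.03 and 0.0016 for Tyk2; DSS in WT was between -0.02 and 0.06 for Il10rb; and the difference between the DSS changes was between -0.02 and 0.17 for Il6st and -0.05 and 0.02 for Jak1. Counts limit what can be said of Osmr without DSS, of Il22, Il6 and Il11, and of Rora.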
